A study of Mus musculus with 42 samples.

Results

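The 7 genes described here encode the receptor chains, the kinase, the transcription factor and 3 response genes of the leukaemia inhibitory factor (LIF) pathway. Lifr and Il6st are the receptor, Jak1 the kinase, Stat3 the transcription factor, and Socs3, Junb and Pim1 genes that STAT3 is known to switch on. They were taken by gene symbol from both array types, and all 7 were measured on each, with 16 probes of 45281 on the first type and 12 of 25697 on the second. A filter on detection left 10 and 11 of these probes, and all 7 genes, among 11450 and 10013 genes tested.

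Samples were mouse inner cell masses (ICMs), the outgrowths that form when blastocysts or ICMs attach to gelatin, and embryonic stem cells (ESCs) derived from them. The first run held 18 Mouse WG-6 bead arrays of BALB/c material with 3 replicates per group, namely ICM, whole-blastocyst outgrowths on days 3, 5, 7 and 9 (BO-3 to BO-9), and ESC. The second run held 24 MouseRef-8 arrays with 2 replicates per group. It held hybrid ICMs, ICM outgrowths and ESCs at passages 2, 4 and 15 (P2, P4, P15). The outgrowths are named by their day after plating, from IO-0.5 to IO-5 with days 1, 2 and 3 between. Outgrowths at days 1 and 3 in SB medium (SBIO-1, SBIO-3) and 2 BALB/c ICM arrays joined them. For this run and other experiments the study lists F1 hybrids (B6 x C3H), such F1 females crossed with CD1 males, and OG2 x F1 hybrids. OG2 mice carry a GFP transgene driven by Pou5f1 sequences. Which cross each array held is not given in the sources used here. ICMs were isolated at E3.5 by immunosurgery, a step meant to remove trophectoderm, and were not cultured. Outgrowths and ESCs, apart from the SBIO groups, grew in N2B27 with R2i, that is 1 µM PD0325901, a MEK inhibitor, and 10 µM SB431542, which blocks type I receptors of TGF-β, together with 1000 U/mL LIF. SB medium held SB431542 and LIF without PD0325901, so LIF was added to every cultured group and not to the uncultured ICMs. Each replicate pooled 20 to 30 (first run) or 30 to 40 (second run) ICMs or outgrowths, and the RNA was amplified in 2 rounds. In such pools a lower level in every cell and a smaller share of expressing cells cannot be told apart.

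LIF binds LIFR, which pairs with gp130, the product of Il6st. The receptor carries JAK kinases that phosphorylate STAT3, which then enters the nucleus. Mouse ESCs are classically kept undifferentiated by this route. Among STAT3 targets, Socs3 encodes a feedback inhibitor that binds gp130 and JAKs, Junb an AP-1 transcription factor and Pim1 a serine/threonine kinase. Messenger RNA levels do not report phosphorylation, and no protein was measured here.

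The start sites of Socs3, Stat3 and Junb are shown because the ICM and medium contrasts of the pathway turn on these genes. Each stretch runs from 250 bases before to 50 bases after the RefSeq start site (GRCm38.p6) and is written on the strand of the gene. Capitals mark the STAT-type motif TTCNNNGAA, which reads the same on both strands.
Socs3 promoter, chr11:117969317-117969616, minus strand: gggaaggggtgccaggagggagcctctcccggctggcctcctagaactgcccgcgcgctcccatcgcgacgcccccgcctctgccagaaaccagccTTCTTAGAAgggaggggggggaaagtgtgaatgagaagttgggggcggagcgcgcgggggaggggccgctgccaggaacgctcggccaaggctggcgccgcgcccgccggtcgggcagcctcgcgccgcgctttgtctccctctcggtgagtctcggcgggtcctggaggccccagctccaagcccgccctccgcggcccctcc
Stat3 promoter, chr11:100939491-100939790, minus strand: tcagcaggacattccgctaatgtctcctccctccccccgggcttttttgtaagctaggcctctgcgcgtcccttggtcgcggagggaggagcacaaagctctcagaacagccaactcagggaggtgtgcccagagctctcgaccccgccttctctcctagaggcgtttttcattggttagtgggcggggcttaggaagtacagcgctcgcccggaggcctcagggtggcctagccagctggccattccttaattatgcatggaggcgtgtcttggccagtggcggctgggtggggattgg
Junb promoter, chr8:84978699-84978998, minus strand: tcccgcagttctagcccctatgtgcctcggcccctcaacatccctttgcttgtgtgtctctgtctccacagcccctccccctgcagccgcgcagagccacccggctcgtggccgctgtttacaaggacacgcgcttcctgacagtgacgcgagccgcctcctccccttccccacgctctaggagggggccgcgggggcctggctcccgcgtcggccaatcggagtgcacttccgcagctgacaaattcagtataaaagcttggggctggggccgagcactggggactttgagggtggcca
Of the 9 start-site windows listed for the 7 genes, only that of Socs3 held the motif, as TTCTTAGAA with its first base at position -154 relative to the start site. Among all 32851 promoter windows of that length, 8.3% held TTCNNNGAA, and 1.15% the stricter TTCCNGGAA, which none of the 9 had. The AP-1 motif TGANTCA was in 7.81% of all windows and in none of the 9. A match is a description of letters, and binding was not measured.

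Between ICM and ESC, Il6st and Socs3 rose and Stat3 fell in the BALB/c run, and the 2 Jak1 probes went in opposite directions. By limma with Benjamini-Hochberg adjustment over all genes, a gene was called at a change of at least 2-fold with an adjusted p of at most 0.05. By this rule 3 of the 7 genes were higher and 1 lower in ESC than in ICM, where 25.3% of all genes tested were called, 13.7% higher and 11.6% lower. The 3 include Jak1 by its brighter probe, and with its other probe 2 were higher and 2 lower. Their median change was 0.17 (log2), and that of all genes 0. Levels below are normalized log2 intensities of the brightest probe of a gene, and "detected" means a detection p under 0.05.

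**Figure D1:**
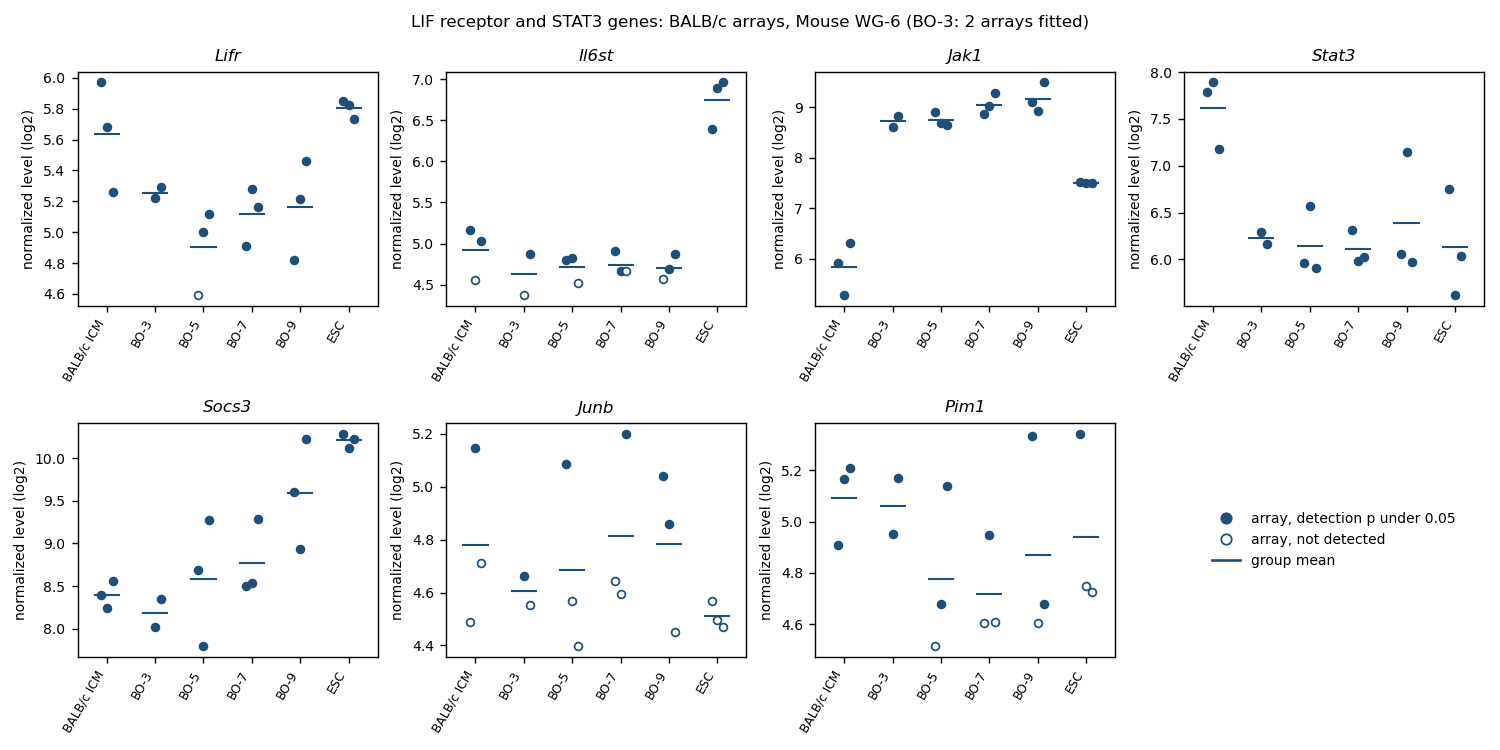
Normalized level (log2) of each gene on the BALB/c arrays by group, one point per array, open where not detected, with a bar at the group mean. Il6st stood at 6.39 to 6.96 in ESC against at most 5.17 in every other group, while Stat3 stood highest in ICM.

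Lifr, the ligand-binding chain, was dim. Its ICM arrays read 5.97, 5.68 and 5.26, its ESC arrays 5.85, 5.82 and 5.73, and its BO-9 arrays 4.82, 5.21 and 5.46. ESC and ICM overlapped (difference 0.17 ± 0.20 log2, SE; adjusted p = 0.524), while all ESC arrays lay above all BO-9 arrays by 1.56-fold (adjusted p = 0.0167), below the 2-fold limit.

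Il6st, the signal-transducing chain, was near background until the ESC stage. It read 5.17, 4.55 and 5.03 in ICM, and 4.38 to 4.91 on the 11 fitted BO arrays, of which 7 detected it. ESC arrays read 6.39, 6.89 and 6.96. ESCs were therefore above every other array, 3.56-fold over ICM (adjusted p = 4.77e-07) and 4.12-fold over BO-9 (adjusted p = 5.38e-07), and no step between ICM and BO-9 was called. The rise was read by ILMN_2608184 alone, since the other Il6st probe, ILMN_2452075, was detected on no fitted array and was not kept.

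Jak1, a kinase that docks on gp130, was read by 2 kept probes that moved in opposite directions from ICM to ESC. The brighter, ILMN_1213278, read 5.92, 5.29 and 6.32 in ICM, 8.62 and 8.82 in BO-3, 9.10, 8.92 and 9.49 in BO-9, and 7.52, 7.50 and 7.50 in ESC. No arrays of these groups overlapped, and it was 7.34-fold higher in BO-3 than in ICM (adjusted p = 4.63e-08), 3.17-fold higher in ESC than in ICM (adjusted p = 4.26e-06) and 3.17-fold lower in ESC than in BO-9 (adjusted p = 1.14e-05). The other, ILMN_2701093, read 6.12, 6.08 and 5.63 in ICM, 5.71 and 5.40 in BO-3, and 4.63, 4.69 and 4.70 in ESC, where no array detected it. It was at -0.39 ± 0.28 (log2, SE) in BO-3 against ICM. For ESC against BO-9 it was at -0.37 ± 0.25, in the direction of the brighter probe. With that probe standing for the gene, the ESC to ICM change was -1.27 (log2, adjusted p = 0.00038) instead of 1.66 (log2), so a direction for Jak1 as a gene is not given.

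Stat3 was highest in ICM on both of its kept probes. ILMN_2698046 read 7.79, 7.89 and 7.17 in ICM, 6.29 and 6.17 in BO-3 and 6.75, 5.62 and 6.04 in ESC. All ICM arrays lay above all 11 BO and 3 ESC arrays fitted, and Stat3 was 2.62-fold lower in BO-3 (adjusted p = 0.00406) and 2.79-fold lower in ESC (adjusted p = 0.000731). The second probe, ILMN_2589790, gave -0.83 ± 0.28 (log2, SE) for BO-3 and -1.20 ± 0.25 for ESC. From BO-3 to ESC the levels overlapped, and no later step was called.

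Socs3, the feedback inhibitor, was detected on all 17 arrays. It read 8.40, 8.24 and 8.56 in ICM, 8.02 and 8.35 in BO-3, 9.60, 8.94 and 10.22 in BO-9 and 10.29, 10.12 and 10.22 in ESC. ESC lay above ICM without overlap, by 3.51-fold (adjusted p = 0.000192), with BO-9 spread between them. BO-9 to ESC was not called (1.54-fold, adjusted p = 0.161).

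Junb and Pim1 stayed near background. Junb lay between 4.40 and 5.20 on the 17 arrays, of which 6 detected it, and Pim1 between 4.51 and 5.34, of which 11 did. ESC and ICM overlapped for both, with differences of -0.27 ± 0.22 and -0.16 ± 0.22 (log2, SE), and at this signal a change of either could not be resolved.

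In BO-3 against ICM, where 20.1% of all genes were called (12.7% higher, 7.35% lower), 1 of the 7 genes was higher (Jak1, by its brighter probe) and 1 lower (Stat3). In ESC against BO-9, where 13.4% were called (4.72% higher, 8.72% lower), Il6st was higher and Jak1 by that probe lower. These comparisons share the ICM and ESC arrays. Between BO-3 and BO-9 none of the 7 genes was called in any of 3 steps, at backgrounds of 0.498%, 0.585% and 0.917%. Of the 21 tests in these steps, 1 had an unadjusted p under 0.05, that of Socs3 from BO-7 to BO-9 (1.76-fold).

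**Figure D2:**
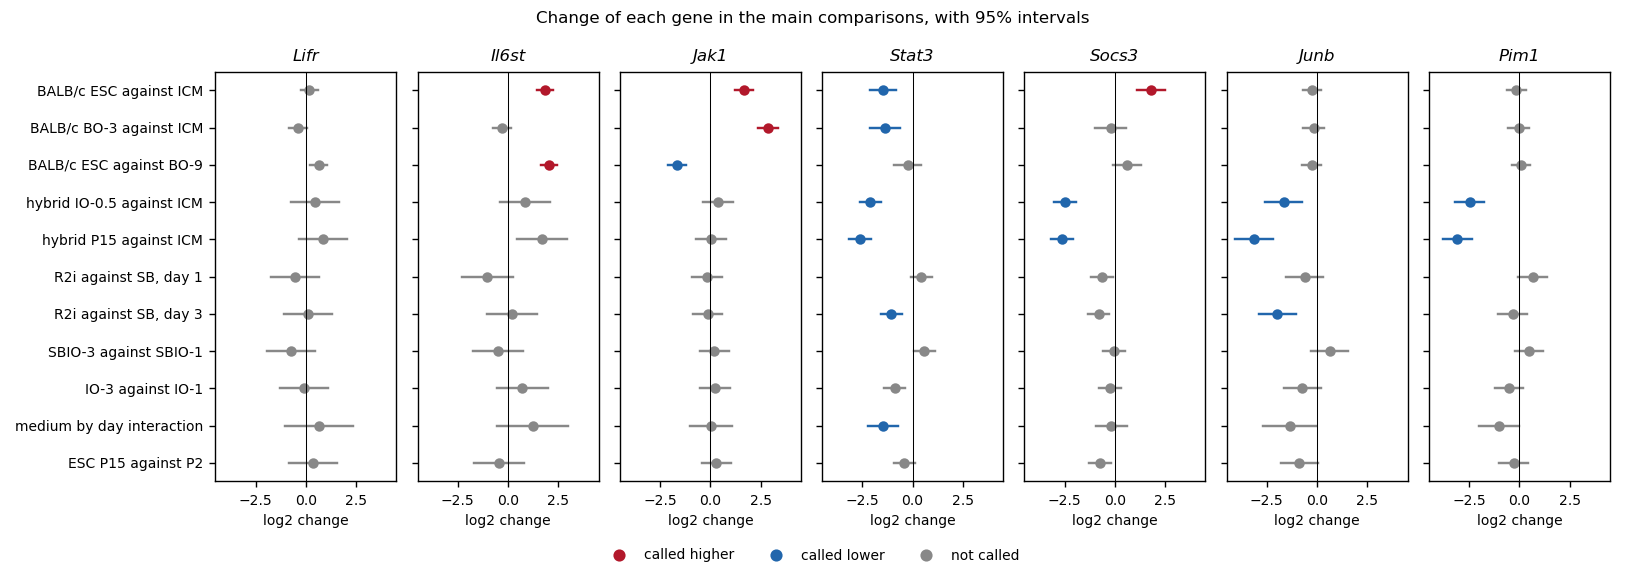
Log2 change of each gene (columns) in the 11 main comparisons (rows), with 95% intervals, coloured by call. The medium by day row is the change from day 1 to day 3 in R2i minus that in SB medium. Calls fell to Stat3, Socs3, Junb and Pim1 against the hybrid ICM, to Il6st, Jak1, Socs3 and Stat3 in the BALB/c run, and to Stat3 and Junb between media.

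Among 69 further genes of the pathway, 52 were tested in this run, and 11 were higher and 9 lower in ESC than in ICM. Of 5 AP-1 genes 3 were lower. Of 4 STATs, of 4 ligands and of 4 adaptors or ERK-arm genes, 2 each were higher. None of these lists, AP-1 included, had a call in the other direction. The 17 targets (3 higher, 4 lower) and 12 inhibitors (2 higher, 2 lower) went both ways. Fos was at 8.57 in ICM and 4.81 in ESC. Of the targets, Pramel7 was 4.00 (log2) lower, and of the inhibitors Cish was 2.60 lower, both with all 3 arrays of each group detected. The ligand Osm was 2.58 (log2) higher. In BO-3 the list had 11 higher and 6 lower, with Fosl2 and Osm higher and Pramel7 and Tbx3 lower, and against BO-9 the ESCs had 3 higher and 6 lower, with Fos, Fosl2, Nfkbiz and Jak2 lower. Marker levels moved with these contrasts. The summed level of 11 primitive and visceral endoderm markers was 13.59 to 13.71 (log2) in ICM and 8.70 to 11.11 in ESC, with 3 to 8 of them detected in ESC and 6 of 9 tested lower. Of 9 trophectoderm markers tested 7 were lower, with a median change of -3.22 (log2), and 5 to 8 of 10 were detected in ESC against 9 in ICM, while their summed level was 14.12 to 14.30 in ICM and 13.57 to 13.74 in ESC. Their part in the changes of the 7 genes was not tested.

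In the second run the hybrid ICM arrays stood apart from all others. They detected 24.2% and 18.0% of probes against 33.0% to 45.6% on the other 22 arrays of that run, and their 95th percentile of scanner intensity was 173 and 135 against 261 to 2363. After quantile normalization the lowest level of any detected probe was 6.37 and 7.36 (log2) there, and 4.62 to 5.28 elsewhere. Each call of the 7 genes against these arrays is therefore given beside the 2 BALB/c ICM arrays of the same type, which detected 37.9% and 37.1%. The BALB/c arrays differ from the hybrid cultures in strain, and strain and stage cannot be told apart in that contrast.

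**Figure D3:**
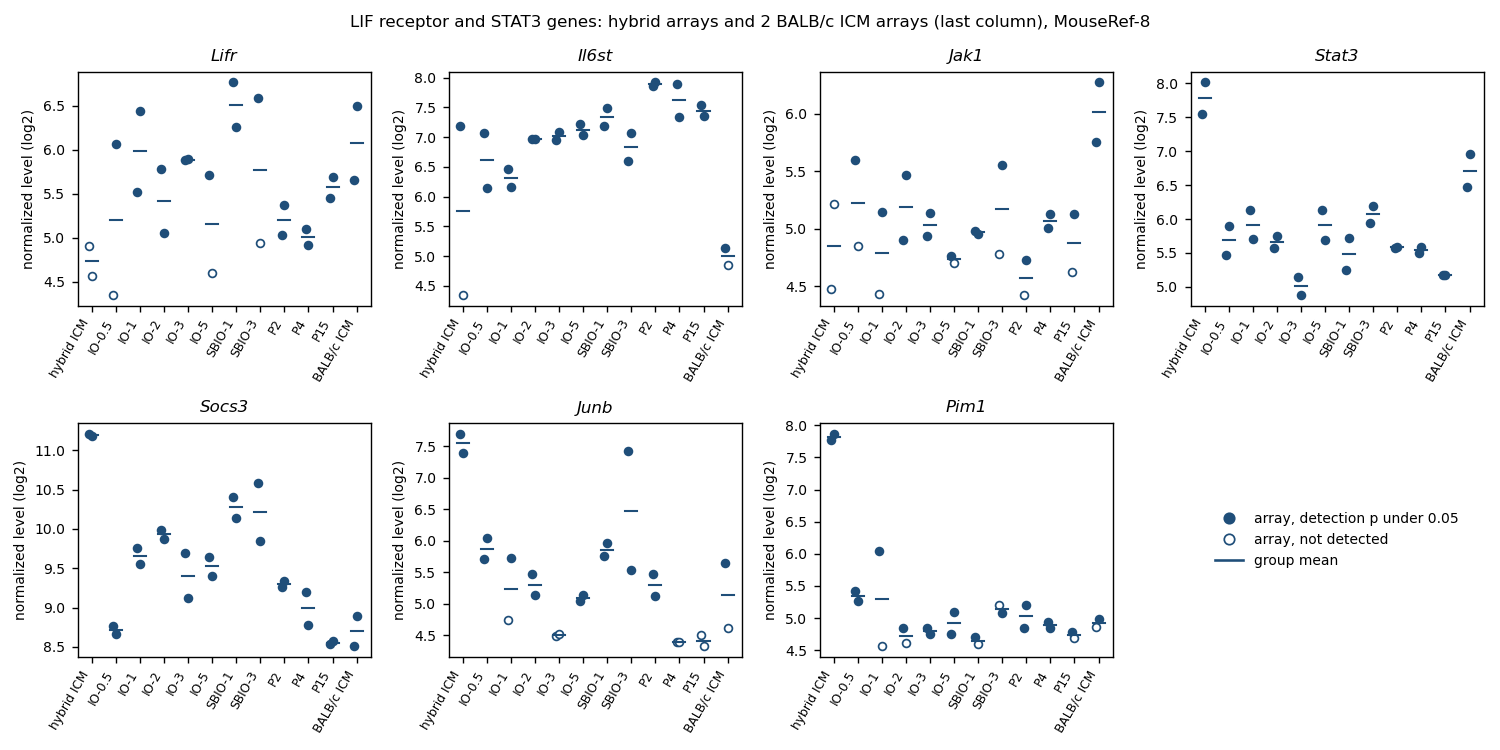
Normalized level (log2) of each gene on the second array type, one point per array, open where not detected, with a bar at the group mean. The last column holds the 2 BALB/c ICM arrays, where Socs3, Junb and Pim1 were far below the hybrid ICM.

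Stat3, Socs3, Junb and Pim1 were lower in IO-0.5, after 0.5 days of culture, than in hybrid ICM, where 23.7% of genes were called at an adjusted p of at most 0.01 and 2-fold, 12.2% as lower. These calls depended on the ICM arrays used and on the scaling. The median change of the 7 genes was -1.67 (log2) and that of all genes 0.04. With each array scaled to a common median instead, none of the 7 was called, and Stat3 was at 0.10 (log2, adjusted p = 0.822).

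Stat3 by probe ILMN_2589790 read 7.54 and 8.01 in hybrid ICM and 5.47 and 5.90 in IO-0.5, 4.27-fold lower (adjusted p = 1.82e-05). The scanner intensities of the same spots were 97.3 and 98.2 in hybrid ICM and 93.8 and 105 in IO-0.5, so that they overlapped before normalization. In BALB/c ICM the intensity was higher, at 139 and 146, and the normalized level lower, at 6.47 and 6.95.

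The second Stat3 probe, ILMN_2698046, was not detected in hybrid ICM (5.01 and 4.94) and read 5.54 and 6.16 in IO-0.5, a change of 0.88 ± 0.36 (log2, SE) in the other direction. In BALB/c ICM it read 6.82 and 7.16, above every hybrid culture on this array type. Against BALB/c ICM these 2 probes were lower in IO-0.5, by 1.03 ± 0.26 (2.04-fold, adjusted p = 0.00804) and 1.14 ± 0.35 (log2, SE), and both were lower in P15, by 1.54 ± 0.26 and 1.35 ± 0.35. The remaining kept probe, ILMN_3096144, was not detected in either ICM and stood at 0.13 ± 0.37 in IO-0.5 and -0.12 ± 0.37 in P15 (log2, SE) against BALB/c ICM.

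**Figure D4:**
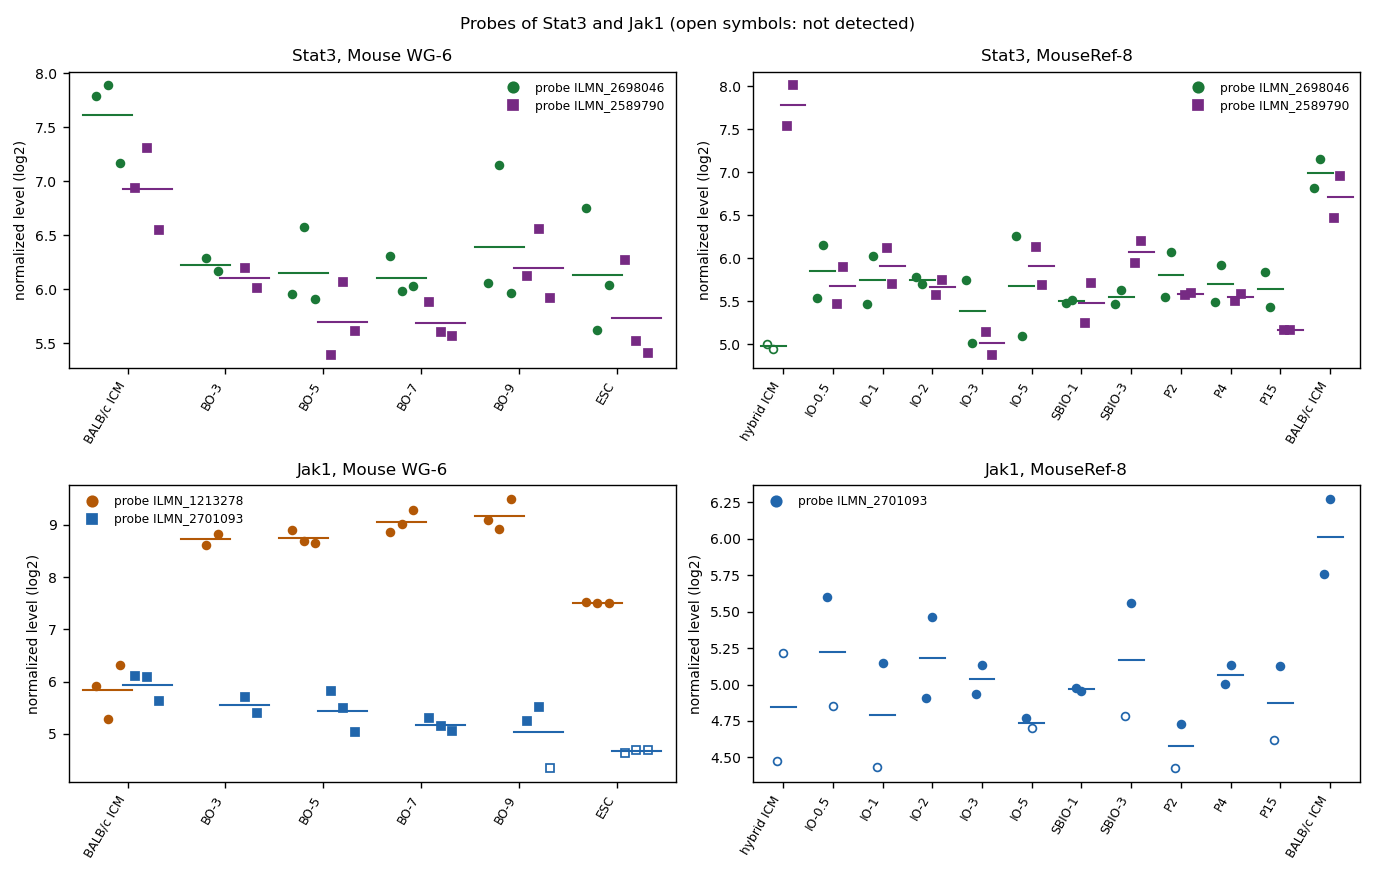
Levels (log2) of 2 probes of Stat3 and of Jak1 on both array types, circles and squares for the probes, open where not detected, bars at group means. The Stat3 probes ran together in BALB/c material and parted in hybrid ICM. On the first array type the Jak1 probes moved in opposite directions from ICM to ESC.

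Socs3 read 11.21 and 11.18 in hybrid ICM and 8.77 and 8.66 in IO-0.5, 5.59-fold lower (adjusted p = 4.97e-06). Its scanner intensities overlapped, at 312 and 209 against 208 and 240. In BALB/c ICM it read 8.51 and 8.90, and IO-0.5 differed from that by 0.01 ± 0.26 (log2, SE; 95% interval -0.53 to 0.55).

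Junb read 7.70 and 7.39 in hybrid ICM and 5.70 and 6.05 in IO-0.5, 3.18-fold lower (adjusted p = 0.0071). Leaving out any 1 of the 4 arrays ended that call (adjusted p from 0.0185 to 0.048). In BALB/c ICM it read 5.65 and, not detected, 4.61. Pim1 read 7.77 and 7.87 in hybrid ICM and 5.42 and 5.27 in IO-0.5, 5.56-fold lower (adjusted p = 4.56e-05), and 4.87, not detected, and 4.99 in BALB/c ICM. The hybrid ICM intensities of Pim1, 99.1 and 97.3, met those of IO-0.5 (93.5 and 97.8) and of BALB/c ICM (99.6 and 96.1). Neither gene differed beyond the test between IO-0.5 and BALB/c ICM, with changes of 0.74 ± 0.46 and 0.42 ± 0.32 (log2, SE). Among 53 further pathway genes, 4 were higher and 8 lower in IO-0.5 than in hybrid ICM. Pias1, an inhibitor of activated STATs, was higher by 3.13 (log2; 1 of 2 ICM arrays detected) and Gbx2 lower by 2.33. These counts also depended on the ICM. Of 14 inhibitors 3 were higher against hybrid ICM and 0 against BALB/c ICM. Of 2 receptor chains 2 were lower against hybrid ICM and 0 against BALB/c ICM. Of the AP-1 genes 1 of 5 was lower against hybrid ICM and 3 of 6 against BALB/c ICM. Trophectoderm markers moved with this contrast, 8 of 9 tested being higher in IO-0.5 than in hybrid ICM. The summed level of 10 was 12.65 to 12.95 (log2) in hybrid ICM, with 4 to 5 of them detected. It was 14.05 to 14.13 in IO-0.5, with 9 detected, and 13.46 to 13.49 in BALB/c ICM. Against BALB/c ICM 5 of 9 of these markers were higher in IO-0.5. Their part in the changes of the 7 genes was not tested. Of the 7 genes Stat3 alone was called against BALB/c ICM in IO-0.5, where 12.6% of genes were, 6.89% as lower.

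**Figure D5:**
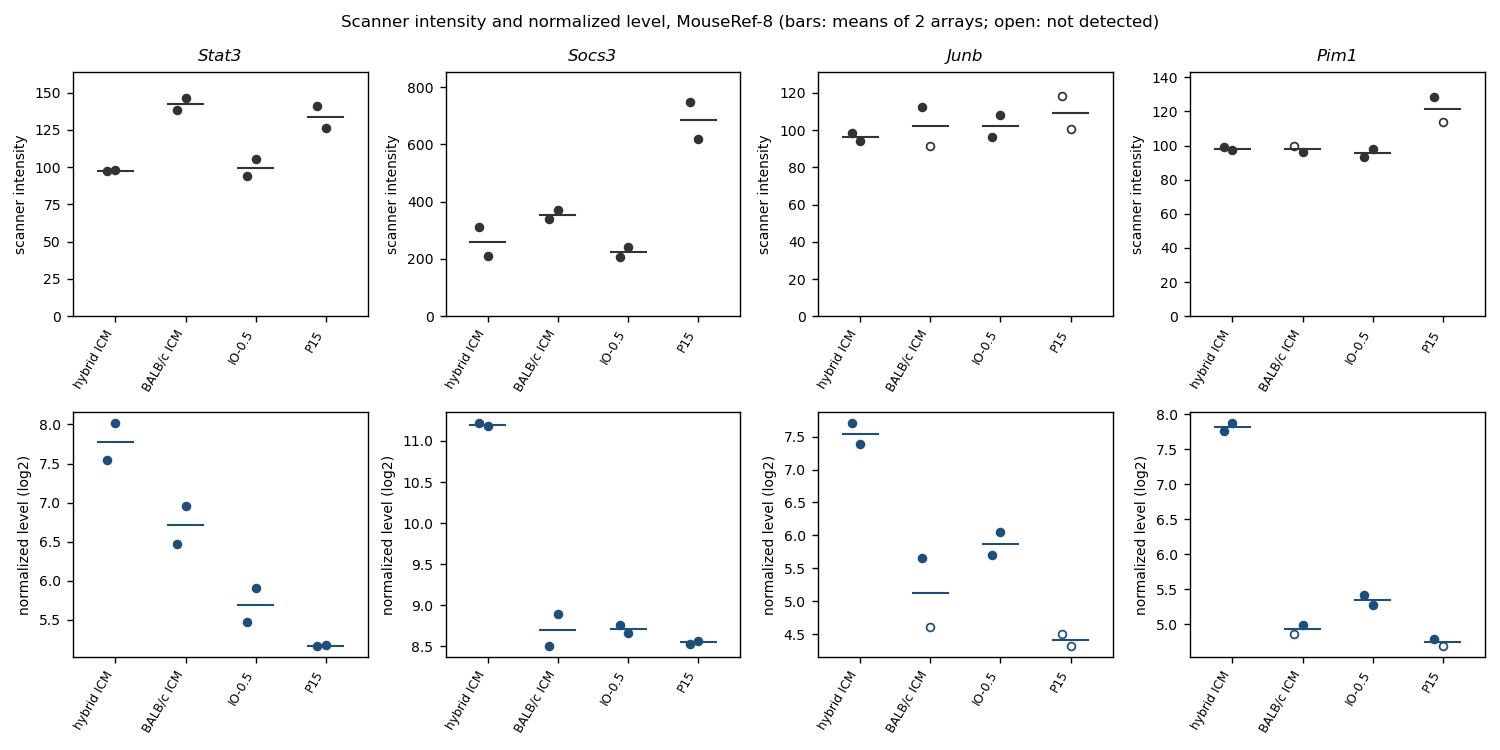
Scanner intensity (upper row, linear axis from 0) and normalized level (lower row, log2) of 4 genes in hybrid ICM, BALB/c ICM of the same array type, IO-0.5 and P15, 2 arrays each. Intensities of Stat3 and Pim1 in hybrid ICM lay within or next to those of IO-0.5, while normalized levels there were 7.54 or higher.

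Hybrid ICM and BALB/c ICM on this array type differed by call in 4 of the 7 genes, against 33.3% of all genes (16.5% lower). BALB/c ICM was lower in Socs3 (5.63-fold, adjusted p = 2.24e-06), Pim1 (7.43-fold), Junb (5.33-fold) and, by ILMN_2589790, Stat3 (2.10-fold). The direction of Stat3 turned with the probe. By ILMN_2698046 BALB/c ICM was higher, at 2.015 ± 0.354 (log2, SE), and by ILMN_3096144 it was at -0.425 ± 0.366. Strain and the dimness of the hybrid arrays cannot be told apart in this contrast.

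On day 1 the same ICM arrays gave Stat3 (by ILMN_2589790), Junb and Pim1 lower in both media. By ILMN_2698046 Stat3 was at 0.77 ± 0.36 in IO-1 and 0.52 ± 0.36 in SBIO-1 (log2, SE). Of all genes, 25.7% were called in IO-1 (13.2% lower) and 35.4% in SBIO-1 (17.2% lower). Socs3 was lower in IO-1 by 2.91-fold (adjusted p = 0.000223), and in SBIO-1 it was 1.89-fold below hybrid ICM (adjusted p = 0.00735), under the 2-fold limit. Against BALB/c ICM, where 10.8% of genes were called in IO-1 and 11.5% in SBIO-1 (6.29% higher, 5.2% lower), none of the 7 genes was called in IO-1 and 3 were in SBIO-1. In IO-1, 4 of the 7 had an unadjusted p under 0.05, with Stat3 at -0.80, Socs3 at 0.95, Il6st at 1.31 and Jak1 at -1.22 (log2). In SBIO-1, Stat3 was lower by 2.34-fold (adjusted p = 0.00241), and Socs3 was higher by 2.98-fold (adjusted p = 0.000303) and Il6st by 5.08-fold (adjusted p = 0.00701). Socs3 in SBIO-1 was thus below the one ICM and above the other. Junb and Pim1 were at 0.10 and 0.38 in IO-1 and at 0.73 and -0.28 in SBIO-1 (log2) and were not called. Markers moved with the contrasts to BALB/c ICM. The summed level of 10 trophectoderm markers was 13.46 to 13.49 (log2) in BALB/c ICM. It was 14.11 to 14.23 in IO-1 and 11.69 to 11.74 in SBIO-1. The part of these markers in the changes of the 7 genes was not tested.

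P15 against hybrid ICM gave the same 4 genes lower, Stat3 by ILMN_2589790 only. By ILMN_2698046 Stat3 was at 0.66 ± 0.36 and by ILMN_3096144 at -0.55 ± 0.37 (log2, SE). The background was 48% of genes called, 23.9% as lower. The median change was -2.61 (log2) for the 7 genes against 0.04 for all. P15 arrays read 5.17 and 5.17 for Stat3, 8.53 and 8.57 for Socs3, and 4.79 and 4.69 for Pim1. Junb was not detected in P15, and was 8.77-fold lower (adjusted p = 1.93e-05). With each undetected P15 array set at the lowest detected level on it, Junb was 6.74-fold lower. That value takes the normalized hybrid ICM levels as given and is not a minimum. Against BALB/c ICM, where 1 of 2 arrays detected Junb, the same value was 1.26-fold. Against BALB/c ICM, Stat3 alone of the 4 was called in P15, and Socs3 was at -0.15 ± 0.26, Junb at -0.72 ± 0.46 and Pim1 at -0.19 ± 0.32 (log2, SE). Markers moved with both contrasts. Of 10 endoderm markers tested 6 were lower in P15 against either ICM, their summed level (11 markers) being 8.36 to 8.42 (log2) in P15, 11.92 to 11.95 in hybrid ICM and 13.27 to 13.37 in BALB/c ICM. Of 9 trophectoderm markers 4 were lower and 1 higher against hybrid ICM, and 8 were lower against BALB/c ICM. Their part in the changes of the 7 genes was not tested. With median scaling Stat3 and Socs3 were no longer called (-0.20 and -0.12, log2), Junb and Pim1 were still lower (-2.10 and -1.78), and Il6st was called higher (1.64) and Jak1 lower (-1.05).

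Il6st in the hybrid series had its lowest mean in ICM, where the arrays stood far apart, at 7.18 and, not detected, 4.35. BALB/c ICM read 5.13 and, not detected, 4.86. The outgrowths read 7.07 and 6.15 in IO-0.5, 6.46 and 6.16 in IO-1, 6.97 and 6.98 in IO-2, 6.96 and 7.09 in IO-3, and 7.22 and 7.03 in IO-5.

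The ESCs lay above all outgrowths in R2i, with 7.86 and 7.92 in P2, 7.89 and 7.35 in P4 and 7.54 and 7.35 in P15. P15 was 3.21-fold above hybrid ICM (1.68 log2, adjusted p = 0.0209, not called), a change that was 3.10 and called without hybrid ICM replicate 1 and 0.26 without replicate 2. P15 was 5.47-fold above BALB/c ICM (adjusted p = 0.00279), where 22.7% of genes were called, 11.5% as higher and 11.2% as lower. ESCs of both strains thus lay above the BALB/c ICM arrays of their own array type. No single step from IO-0.5 to P15 was called for it, and IO-5 to P2 was 1.70-fold (adjusted p = 0.958).

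Lifr was again dim, with 17 of 22 arrays detected and group means from 4.74 in hybrid ICM, where neither array detected it, to 6.52 in SBIO-1. Jak1 was measured here only by ILMN_2701093, which moved opposite to the brighter probe from ICM to ESC in the BALB/c run, and 14 of 22 arrays detected it. Its hybrid group means ran from 4.58 to 5.23, and it was called in none of the main comparisons. BALB/c ICM stood at a mean of 6.01. Against BALB/c ICM Jak1 was at -0.79 ± 0.35 in IO-0.5 and -1.22 ± 0.35 in IO-1 (log2, SE). It was at -1.05 ± 0.35 in SBIO-1 and -1.14 ± 0.35 in P15, and none of these was called.

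In culture from IO-0.5 to P15, no step of Socs3 was called. Its means were 8.71 in IO-0.5, 9.66 in IO-1, 9.93 in IO-2, 9.40 in IO-3, 9.52 in IO-5, 9.30 in P2, 8.99 in P4 and 8.55 in P15. IO-1 lay above IO-0.5 without overlap (1.92-fold, adjusted p = 0.0351) and P15 below P2 (1.68-fold, adjusted p = 0.0412), and neither met the call. None of the 7 genes was called in any of the 7 consecutive steps of this course, whose backgrounds in order were 3.46%, 1.87%, 0.0999%, 0.16%, 1.34%, 0.35% and 0.519%, and 3 of these 49 tests had an unadjusted p under 0.05. None was called either in P15 against P2 (13%). Across that passage span 4 of the 53 tested pathway genes were lower and 2 higher, with Klf5 lower by 1.86 (log2) and Nfkbiz higher by 2.29.

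R2i and SB medium, which by their description differ in the MEK inhibitor, gave no call among the 7 genes on day 1, where 2.56% of genes were called. The LIF dose of SB medium is not given in the sources used here. At an unadjusted p under 0.05, Socs3 alone passed, with 9.76 and 9.55 in IO-1 against 10.41 and 10.14 in SBIO-1 (1.54-fold lower in R2i, adjusted p = 0.202). Il6st was 2.04-fold lower, with a 95% interval of -2.28 to 0.22 (log2) and no overlap of arrays. Among the 53 further pathway genes, Gbx2 was lower in R2i by 2.16 (log2) and Gadd45g higher by 1.30. Markers moved with this contrast too. Of 9 trophectoderm markers 7 were higher in R2i, the summed level of 10 being 14.11 to 14.23 in IO-1 and 11.69 to 11.74 in SBIO-1. The summed level of 11 endoderm markers was 13.13 to 13.31 in IO-1 and 14.48 to 14.52 in SBIO-1, with 2 of 10 tested lower in R2i. Their part in the day 1 differences was not tested.

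On day 3, where 11.2% of genes were called (4.93% lower), Stat3 and Junb were lower in R2i than in SB medium. Stat3 read 5.15 and 4.88 in IO-3 and 5.95 and 6.20 in SBIO-3, 2.08-fold lower (adjusted p = 0.00682). Junb was not detected in IO-3 (4.48 and 4.52) and read 7.42 and 5.54 in SBIO-3, 3.94-fold lower (adjusted p = 0.00441). The 95% interval of that change was -2.91 to -1.05 (log2). With each undetected IO-3 array set at the lowest detected level on it, Junb was 3.46-fold lower.

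Socs3 leaned the same way without a call, at 9.69 and 9.12 against 10.59 and 9.84 (1.76-fold, adjusted p = 0.0333). The median change of the 7 genes was -0.34 (log2) and that of all genes 0.01. The Stat3 call rested on 1 probe. ILMN_2698046 read 5.75 and 5.02 in IO-3 and 5.47 and 5.63 in SBIO-3, a difference of -0.17 ± 0.36 (log2, SE), and the third probe gave -0.07 ± 0.37.

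SBIO-3 replicate 1 was dim, with 33.5% of probes detected. Without it Junb was at -1.04 (adjusted p = 0.0545) and Stat3 at -1.18 (adjusted p = 0.0181), and neither was called. Without SBIO-3 replicate 2 Junb was still called (-2.92), Socs3 became called (-1.19, adjusted p = 0.00558) and Stat3 was not (-0.93, adjusted p = 0.0367). Leaving out either IO-3 array also ended both calls. Markers moved with this contrast. The summed level of 11 endoderm markers was 14.57 to 14.81 (log2) in SBIO-3 and 13.18 to 13.33 in IO-3, and that of 7 pluripotent markers 9.65 to 10.01 and 12.46 to 12.56, with 4 to 5 of the 7 detected in SBIO-3 and 6 in IO-3. Of 9 trophectoderm markers 5 were lower in R2i, the summed level of 10 being 13.95 to 14.03 in SBIO-3 and 12.72 to 12.84 in IO-3. Their part in the Stat3 and Junb differences was not tested.

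From day 1 to day 3 Stat3 went from 5.25 and 5.72 to 5.95 and 6.20 in SB medium (0.59 ± 0.25, log2, SE) and from 6.13 and 5.70 to 5.15 and 4.88 in R2i (-0.90 ± 0.25), without overlap and without a call in either medium. The difference between these changes was -1.49 ± 0.35 (log2, SE; adjusted p = 0.00798), the 1 call among the 7 genes, where 10.4% of all genes were called (4.5% in that direction). By ILMN_2698046 it was -0.41 ± 0.51 and by ILMN_3096144 -0.10 ± 0.53. Leaving out any 1 of 7 of the 8 arrays, all but IO-1 replicate 2, ended the call (changes of -1.72 to -1.25). In the same test 8 of 9 trophectoderm markers were called in the direction of Stat3 (median -3.75, log2), and their part was not tested. The SBIO-3 to SBIO-1 and IO-3 to IO-1 comparisons called none of the 7, at backgrounds of 7.21% and 7.32%. In each of them 1 gene by its brightest probe, Stat3, had an unadjusted p under 0.05. The dimmer Lifr probes ILMN_1242960 and ILMN_2829015 changed by -1.224 ± 0.32 and -0.982 ± 0.274 (log2, SE) in SB medium. Both were detected on 2 SBIO-1 arrays and on 0 SBIO-3 arrays. Their medium by day differences were 1.644 ± 0.453 and 1.041 ± 0.387, and that of the brightest Lifr probe was 0.656 ± 0.795.

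Among the 53 further pathway genes, 7 were higher and 4 lower in R2i on day 3. Gbx2, a LIF-responsive homeobox gene, was higher by 4.12 (log2), and Socs2, a relative of Socs3, by 3.96, with 1 of 2 SBIO-3 arrays detected. Nfkbiz was lower by 2.63. From day 1 to day 3 in SB medium Gbx2 fell by 4.73 and Tbx3 fell by 3.24. The response genes of the list therefore moved in both directions within 1 contrast.

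Over the 22 hybrid arrays, the genes most like each of the 7 were found by Pearson's r. For Pim1 they were Tas1r3, Rgs7bp and Ugt1a6a, each at an r of 0.979, and over the 17 BALB/c arrays r with Pim1 was -0.06 for Tas1r3 and 0.26 for Rgs7bp. For Stat3 they were Abca17 (0.924), Saxo2 (0.918) and Mrps14 (0.917), with 0.13, 0.24 and 0.63 in BALB/c. For Il6st they were Ttf2 (0.902), Rnf34 (0.884) and Epc1 (0.880), with 0.74, 0.45 and 0.14. For Socs3 they were Dnajc16 (0.857), Mrpl34 (0.848) and Shroom3 (0.847), with -0.71, 0.77 and -0.09. Junb was most like Pld3 (0.894), Lifr like Phtf1 (0.788) and Jak1 like Rdh14 (0.818). The arrays share 2 hybrid ICM points that lie far from the rest.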

How the data were processed

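Values came from 42 Illumina bead arrays. The authors deposited the intensity of each probe and its detection p value, which ranks it among the negative controls of that array, as exported from GenomeStudio, and a log2 table made with limma's neqc; versions are not given in the sources used here. A detection p was set for each array by the authors, and no fold change or p value of theirs was used.

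Intensities were processed again in R 4.3.3 with limma 3.58.1 and drawn with matplotlib 3.10.9. Each run was background corrected by neqc from the detection p with an offset of 16 and quantile normalized over all its arrays. The result followed the deposited log2 values with r of at least 0.9999975 and 0.9999649, apart from a constant of 4.127 to 4.153. Each run was thus on its own scale, and levels were not compared between runs.

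Of the probes, 34885 and 23978 carried 1 gene symbol, 18 and 0 several, and 10378 and 1719 none. Probes needed a detection p below 0.05 on 2 or more fitted arrays, and each gene was read from its kept probe of highest mean. One linear model with moderated variance (lmFit, eBayes) was fitted per run, over 17 arrays of the first and 22 of the second, and over 24 for contrasts with BALB/c ICM on MouseRef-8, arrays the study does not describe. BO-3 replicate 1 was left out, since the study shows 2 BO-3 replicates, and it was dim, with 26.2% of probes detected. P values were adjusted by Benjamini-Hochberg over all genes of a comparison, and a call needed 2-fold and 0.05 (first run) or 0.01 (second run). The number of arrays limits the precision. The study calls all replicates biological, and those of ICMs and outgrowths are pools. Whether ESC replicates were separate lines or cultures is not given in the sources used here, so their spread may be partly technical.

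The 7 genes are named in every comparison, with up to 4 other pathway genes of the largest called change and the 3 genes most like each member. The members and lists were chosen with earlier results of these data known. The fit was tested on simulated data.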

Additional observations from a re-analysis of the deposited data

Results flagged for a closer look

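Stat3 differed between media in its change from day 1 to day 3, by a test of the difference itself whose call did not hold in most refits. The change in R2i minus that in SB medium was -1.49 (log2, adjusted p = 0.00798), with a change of -0.90 in R2i and 0.59 in SB medium, and day 1 and day 3 arrays did not overlap in either medium. It was -0.41 by the second probe, and the call was lost in 7 of 8 fits without 1 array, without background correction (adjusted p = 0.0258), with an offset of 50 (adjusted p = 0.0135), with median scaling (adjusted p = 0.116) and with a trended robust prior (adjusted p = 0.0211). Il6st arrays of day 1 and day 3 did not overlap either, with differences of 0.71 in R2i and -0.50 in SB medium, neither of them called, and the test between these missed the threshold (1.22 ± 0.83, log2, SE; adjusted p = 0.314).

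Socs3 rose from ICM to ESC by 1.81 (log2) in BALB/c and was 2.65 lower (a change of -2.65) in hybrid P15 than in hybrid ICM, without overlap of arrays in either. The difference was not tested, since the runs used different array types and scales. Against BALB/c ICM on the second array type, P15 was at -0.15 ± 0.26 (log2, SE).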

How the results depend on the processing

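Of 215 recomputed counts of called genes among the 7, 175 stayed within 1.5 times the main count. Of the 371 recomputed values of the 19 called changes, 303 stayed called in the same direction, and among 1129 values of uncalled changes 15 became called in the same direction. Without background correction the counts were 1 for BALB/c ESC against ICM (Socs3), 1 for BO-3 against ICM, 1 for ESC against BO-9, 0 for R2i against SB on day 3 and 0 for the medium by day interaction. With an offset of 50 the latter 2 were both 0. With median scaling IO-0.5 against ICM gave 0, day 3 gave 1 (Junb), IO-3 against IO-1 gave 1 (Junb) and the interaction 2 (Junb and Il6st). Median scaling also turned Stat3 in IO-0.5 against ICM to 0.10 and Jak1 in P15 against ICM to -1.05, while the median of all genes lay between -0.25 and 0.14. The next brightest probe gave 0 for BO-3 against ICM, 1 for ESC against BO-9, 1 for day 3 (Junb) and 0 for the interaction, and turned Jak1 to -1.27 in ESC and -0.39 in BO-3 against ICM, and Stat3 to 0.88 in IO-0.5 and 0.66 in P15 against hybrid ICM. On day 3 the count was 1 without the detection filter (Stat3), 1 with array weights (Junb) and 1 with a trended robust prior (Junb), and that prior gave 0 for the interaction. Fits of only the arrays compared gave 0 for IO-0.5 against ICM, 0 for day 3 and 0 for the interaction, with fewer residual degrees of freedom.

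In settings chosen after seeing the data, BALB/c ICM in place of hybrid ICM gave 1 call for IO-0.5 (Stat3) and 2 for P15 (Stat3 lower, Il6st higher), and turned Socs3, Junb and Pim1 in IO-0.5 to 0.01, 0.74 and 0.42. It gave 0 calls for IO-1 and 3 for SBIO-1 (Stat3 lower, Socs3 and Il6st higher). With the hybrid ICM arrays left out before normalization the count was 1 on day 3 (Junb) and 0 for the interaction, the second probe then standing for Stat3.

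Leaving out 1 array at a time gave counts from 0 to 2 for day 3 (Socs3 and Junb without SBIO-3 replicate 2), from 0 to 2 for the interaction, and from 0 to 1 for R2i against SB on day 1 and IO-3 against IO-1 (Pim1, without IO-1 replicate 2) and for SBIO-3 against SBIO-1 (Junb, without SBIO-3 replicate 2). With the replicate number as a block the interaction gave 0 calls, and no other count left its range. Deviations from group means of same-numbered arrays had r from -0.305 to 0.395 (median 0.039) in the first run and -0.485 to 0.489 (median 0.009) in the second. For different-numbered arrays r ran from -0.442 to 0.334 (median -0.037) and from -0.489 to 0.485 (median -0.009). Deviations within a group sum to 0, so these ranges cannot settle whether the number pairs the arrays. The number was not used in the main fits. Dim signal limits Junb, detected on 6 of 17 and 15 of 22 arrays, Pim1 (11 and 17), Lifr (16 and 17), Il6st in the first run (12) and Jak1 in the second (14).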
